A study of Homo sapiens with 6 samples.

Results

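Potassium channel genes are described here in U87 MG cells with and without stable overexpression of GUCY1B3. The members were all probe sets with 1 platform gene symbol starting with KCN, restricted to protein-coding genes. They came to 84 genes on 85 probe sets, out of 22349 genes with a probe set of their own. The 17 KCN symbols of antisense, intronic or other non-coding transcripts and of a pseudogene were left out, and so were 4 probe sets that carried several symbols. The members lay on 21 chromosomes.

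U87 MG is an established human glioblastoma line. The 6 one-colour Affymetrix arrays held 3 replicates of total RNA from U87 MG cells carrying GUCY1B3 in the plasmid pCDNA3.1D/V5-His-TOPO as a stable transfection, and 3 replicates from U87 MG cells as the control. Both groups were grown in DMEM with 10% FBS and received no treatment. GUCY1B3, now named GUCY1B1, encodes the beta subunit of soluble guanylate cyclase, the nitric oxide receptor that makes cGMP. The labels name no empty-vector line, and they give neither the number of clones nor the source of the replicates. Effects of GUCY1B3 and of transfection or selection cannot be told apart, and with no stated separate cultures the p-values cover array-to-array spread that may be technical.

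Potassium channels let potassium ions leave the cell or enter it and so set the membrane potential. Pore subunits open with voltage, with intracellular calcium or sodium, with inward rectification or as leak channels with a pair of pore domains, and accessory subunits change their gating and trafficking. In glioma cells, potassium channels are known for their part in cell volume changes and migration. Some of them, above all the large-conductance calcium-activated channel, are substrates of cGMP-dependent kinase, which lies downstream of guanylate cyclase.

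GUCY1B1, the check of the labels, read 8.10, 8.18 and 8.40 in overexpression and 7.45, 7.70 and 7.49 in the controls, an adjusted p of 0.00433 (limma). Medians over all 70523 features lay between 4.97 and 5.03 in the 6 arrays. Control array 3 stood farthest from the other arrays of its group. Its root mean square distance over the tested genes was 0.202 on the log2 scale, against 0.0935 to 0.152 for the other arrays. Of the glioma and mesenchymal markers, VIM, NES, CD44, TNC, GFAP, S100B, SOX2 and OLIG2 lay above the array median on all 6 arrays and FABP7 lay below it on all 6. NES was higher in overexpression and TNC lower, and among the markers of neurons, oligodendrocytes, endothelium, immune cells, epithelium and muscle 0 were called in either direction. The mean over the neuron markers was 5.51 to 5.53 on the overexpression arrays and 5.43 to 5.50 on the control arrays. The groups also did not overlap for oligodendrocyte markers (6.163 to 6.227 against 6.088 to 6.155) and epithelial markers (5.548 to 5.560 against 5.492 to 5.527). They overlapped for endothelial, immune and muscle markers. Of the 8 neuron markers 6 (RBFOX3, SNAP25, SYT1, SYN1, GAD1 and SLC17A7) lay above the array median on all 6 arrays. The other 2, STMN2 and NEFL, lay below it on all 6. Above the median on all 6 arrays were also 4 of 4 oligodendrocyte, 4 of 5 endothelial and 3 of 3 muscle markers. For immune and for epithelial markers it was 2 of 5. The part of other cell types in the results was not tested.

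Among the 53 tested potassium channel genes, 2 rose in the overexpressing cells and 0 fell, beside 10.9% called among all tested genes. KCNQ3, a voltage-gated subunit of the neuronal M-current, rose 1.5-fold. KCNN4, the intermediate-conductance calcium-activated channel, rose 1.43-fold. KCNQ3 was called under all 17 alternatives tried. KCNN4 was higher under all 17, by 0.36 to 0.62, and passed the threshold in 13 of them. For the other 51 tested members the differences lay between -0.18 and 0.16 on the log2 scale, and 29 of them were above 0 and 22 below. With the 2 called members 31 were above 0 and 22 below, beside 9329 and 6469 of all tested genes.

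A gene was tested where it lay above the array-wide median on at least 3 of the 6 arrays, and 53 of the 84 members met that rule (63.1%), against 70.7% of all genes. Since the values of 31 members lay near or below the array's median signal, nothing is said of their presence or absence. The 2 calls among 53 tested members made 3.77%, beside 10.9% called among all 15798 tested genes (6.39% higher and 4.53% lower, limma with Benjamini-Hochberg adjustment at 0.05). The median difference over the tested members was 0.02 and that over all tested genes was also 0.02, which centring the arrays on their medians brought to 0.0011. Among the named members KCNG1 and KCNMB4, both near 0, changed sign with that centring. The median size of the difference, without its sign, was 0.05 for the members and 0.08 for all tested genes, while the median standard error was 0.065 in both. A difference of more than 0.25 was seen in 2 of 53 members and in 13.5% of all tested genes.

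The tested members had low signals, with a median of 5.71 against 6.71 for all tested genes. Only 10 members, 18.9% of those tested, exceeded the 75th percentile of all features on at least 3 arrays, which 59.3% of all tested genes did. Of these 10, KCNQ3 and KCNN4 were the 2 called, or 20%, beside 16.1% called among the 9361 genes past that stricter filter. The share called among the brighter members was thus near the background. Since bulk RNA was measured, a larger share of expressing cells and more RNA per cell cannot be told apart.

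**Figure D1:**
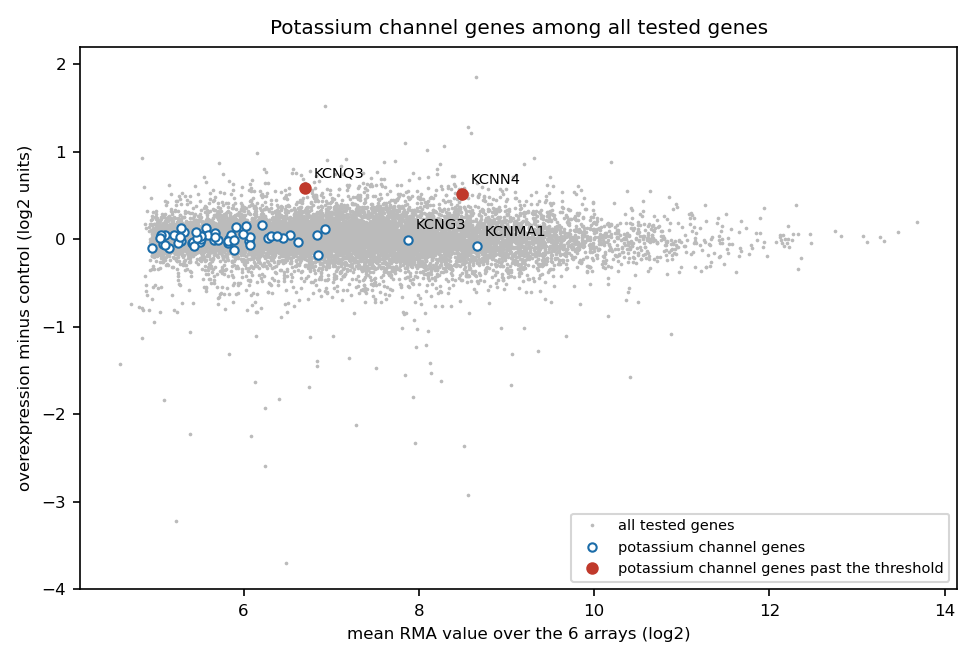
Difference between overexpression and control (log2 units) against the mean RMA value over the 6 arrays, for all 15798 tested genes (grey points) and the 53 tested potassium channel genes (circles). Most circles sit at low signal and near 0, and the filled circles are KCNQ3 at 0.59 and KCNN4 at 0.52.

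The start regions of the members are described next as background, and their sequences are no part of the array data. RefSeq (GRCh38.p14) lists start windows for 65 of the 84 members, 100 windows in all. Of each, the 250 bases before the start are used here. KCNN4 and KCNMA1 are shown because both encode calcium-activated pores with clear signal, of which KCNN4 rose and KCNMA1 was not called. The KCNN4 window is chr19:43780974-43781223 and the first KCNMA1 window of 2 is chr10:77637809-77638058, both on the minus strand. Capitals mark matches on either strand to any of 6 short motifs: the GC box GGGCGG, the short cAMP response element TGACG and its full form TGACGTCA, the AP-1 site TGACTCA, the E box CACGTG and the TATA box TATAAA.
KCNN4: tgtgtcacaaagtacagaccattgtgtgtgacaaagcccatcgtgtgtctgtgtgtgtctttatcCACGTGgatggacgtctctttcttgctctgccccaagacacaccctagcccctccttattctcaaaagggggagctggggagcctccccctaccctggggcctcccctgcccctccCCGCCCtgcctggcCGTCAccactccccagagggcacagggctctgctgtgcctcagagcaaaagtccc
KCNMA1: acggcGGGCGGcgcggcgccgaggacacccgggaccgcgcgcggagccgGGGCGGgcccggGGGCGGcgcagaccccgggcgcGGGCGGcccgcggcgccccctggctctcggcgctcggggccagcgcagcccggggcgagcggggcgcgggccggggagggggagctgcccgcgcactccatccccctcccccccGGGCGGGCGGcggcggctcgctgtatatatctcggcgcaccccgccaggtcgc

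The KCNN4 window held 1 E box at -185, 1 GC box at -69 and 1 short cAMP response element at -55, counted from the start. The KCNMA1 window held 6 GC boxes, a pair of which overlap. Its GC content was 85.6%, against 60.0% for KCNN4, and it held 46 CpG dinucleotides against 5. Among all members' windows the median GC content was 63.6%, and among all 35116 windows listed it was 58.0%. GC boxes occurred in 49.0% of the members' windows and 42.6% of all windows, the short cAMP response element in 16.0% and 21.2%, and the E box in 7% and 6.34%. The full cAMP response element was found in 1% and 1.65%, the AP-1 site in 5% and 4.20%, and the TATA box in 9% and 10.7%. The short form is contained in the full form. These matches describe the letters of the windows only.

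Voltage-gated pore subunits numbered 24, of which 14 were tested, 1 rose and 0 fell, beside 10.9% called among all tested genes. KCNQ3 on chromosome 8 forms the M-current, a slow potassium current that damps repetitive firing, together with other Kv7 subunits. It read 7.03, 6.95 and 7.01 in overexpression and 6.46, 6.46 and 6.31 in the controls. All 3 overexpression arrays lay above all 3 control arrays. Mean values of 7.0 ± 0.04 and 6.41 ± 0.09 (SD, n = 3 each) differed by 0.59 with a 95% interval of 0.45 to 0.73 (limma, adjusted p = 0.00140). The other Kv7 members on the arrays were not called. KCNQ1, a cardiac and epithelial channel, read 6.09 ± 0.10 against 6.06 ± 0.05. KCNQ5 was not tested and read 4.26 ± 0.06 against 4.20 ± 0.05 (SD, n = 3 each). The 20 neighbours of KCNQ3 on each side of the chromosome had a median difference of -0.02, and removing the regional median from each array left KCNQ3 at 0.61.

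The Kv3 subunit KCNC4, which gives a fast inactivating current, read 6.79, 6.74 and 6.77 in overexpression and 6.96, 7.10 and 6.76 in the controls. Control array 3 lay among the overexpression arrays and the other control arrays lay above them. The difference was -0.18 with an interval of -0.37 to 0.02 (limma, adjusted p = 0.243). Without control array 3 KCNC4 was called lower, with a difference of -0.27 and an adjusted p of 0.0129, in a fit that called 22.9% of all tested genes. It was the 1 member with a further probe set, and that one read 5.76 ± 0.05 against 5.67 ± 0.08 (SD, n = 3 each), a difference of 0.09, and so the probe sets disagreed in sign. The other Kv3 genes were KCNC1, with a difference of -0.04, and the dim KCNC2.

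KCNH2, the hERG channel of cardiac repolarization, read 6.55 ± 0.09 against 6.5 ± 0.10 (SD, n = 3 each), with an interval of the difference of -0.11 to 0.22. The other tested EAG-type genes KCNH3, KCNH4 and KCNH6 had a difference of -0.01 each, and KCNH1, KCNH5, KCNH7 and KCNH8 were not tested. In the Kv1 family KCNA1, KCNA5, KCNA7 and KCNA10 were tested. KCNA1, a delayed rectifier of axons, had the largest of their differences at 0.16 (interval -0.01 to 0.33, limma, adjusted p = 0.231). KCNA10 read 5.16, 4.92 and 5.06 against 5.11, 5.07 and 5.12 and lay just inside the filter. Among Kv4 genes, which carry transient A-type currents, KCND1 and KCND3 had a difference of -0.03 each. KCNA3, KCNA4, KCNB2 and KCND2 were not tested.

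Electrically silent subunits form no channel alone and modify Kv2 channels. Of 10 such genes 8 were tested, and 0 rose and 0 fell (limma), beside 10.9% called among all tested genes. At an unadjusted p under 0.05, which 25% of all tested genes reached, 1 of them was higher. That gene was KCNF1, which read 5.62, 5.61 and 5.68 in overexpression and 5.47, 5.52 and 5.55 in the controls. The groups did not overlap, but the difference of 0.13 missed the threshold (interval 0.01 to 0.25, limma, adjusted p = 0.178). KCNG3 read 7.91, 7.82 and 7.88 against 8.08, 7.86 and 7.69. The overexpression arrays fell within the range of the controls, with a difference of 0.00 and an interval of -0.21 to 0.21. KCNG1, the next Kv6 gene, differed by 0.01 with an interval of -0.12 to 0.15.

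KCNS3, a Kv9 subunit, read 7.04, 6.94 and 7.0 in overexpression and 6.83, 6.77 and 7.01 in the controls. Control array 3 again lay within the overexpression values. The difference was 0.12 with an interval of -0.04 to 0.29 (limma, adjusted p = 0.337). Without control array 3 KCNS3 was called higher at 0.19 (limma, adjusted p = 0.0398), in a fit that called 22.9% of all tested genes. KCNG2, KCNG4, KCNS1 and KCNS2 had differences between -0.08 and 0.09. The Kv8 genes KCNV1 and KCNV2 lay just outside the filter, above the median on 2 arrays and on 1 array. Their differences were -0.06 and 0.05.

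Calcium- and sodium-activated pore subunits numbered 7, of which 5 were tested, 1 rose and 0 fell, beside 10.9% called among all tested genes. KCNN4 on chromosome 19 is opened by calcium through bound calmodulin and hyperpolarizes non-excitable cells. It read 8.83, 8.76 and 8.67 in overexpression and 8.16, 8.10 and 8.44 in the controls. The groups did not overlap, and control array 3 lay nearest to the overexpression arrays. Mean values of 8.75 ± 0.08 and 8.23 ± 0.18 (SD, n = 3 each) differed by 0.52 with an interval of 0.31 to 0.73 (limma, adjusted p = 0.0112).

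The call of KCNN4 depended on the arrays and on the test. Its adjusted p was 0.0618 without overexpression array 1 (difference 0.48), 0.0604 without overexpression array 2 (difference 0.52) and 0.115 with an ordinary equal-variance test (difference 0.52). The difference without 1 array ranged from 0.45 to 0.62. The median difference of its 20 neighbours on each side was 0.16, and with that regional median removed from each array KCNN4 kept a difference of 0.36 at an adjusted p of 0.0508.

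**Figure D2:**
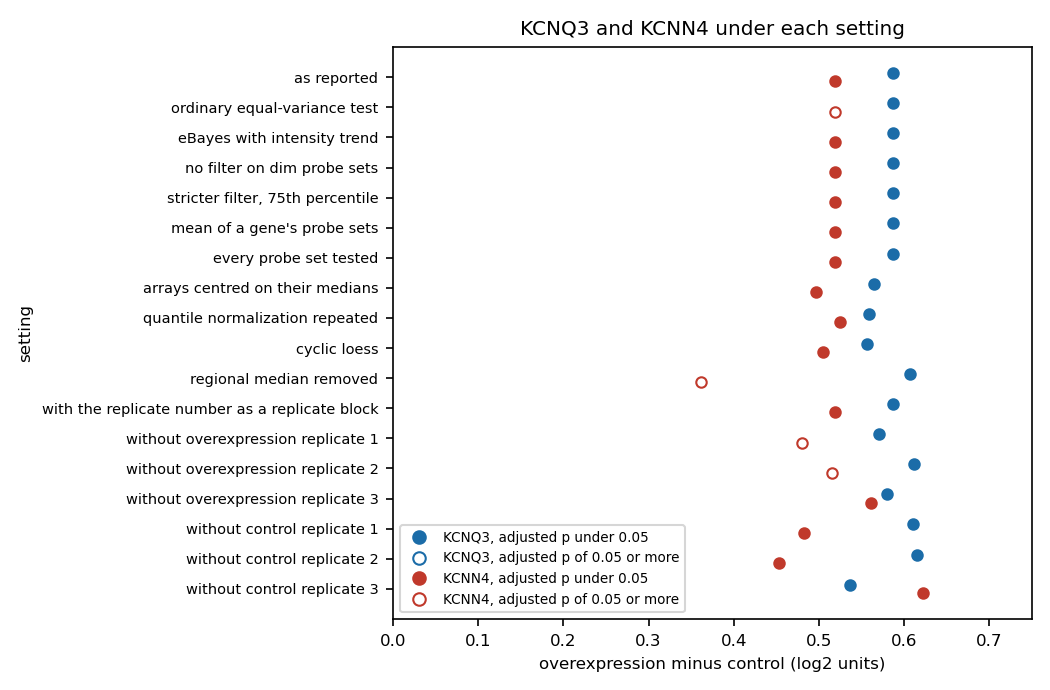
Differences of KCNQ3 and KCNN4 (log2 units, x axis) as reported and under each alternative (y axis), filled where the adjusted p was under 0.05. KCNQ3 stays between 0.54 and 0.61 and filled throughout, while KCNN4 is open in 4 settings and lowest, at 0.36, with the regional median removed.

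KCNMA1, the pore of the large-conductance calcium- and voltage-activated channel, read 8.58, 8.62 and 8.66 in overexpression and 8.64, 8.85 and 8.60 in the controls. Control array 2 was the highest and the groups overlapped. The means of 8.62 ± 0.04 and 8.70 ± 0.13 (SD, n = 3 each) gave a difference of -0.08 with an interval of -0.24 to 0.09 (limma, adjusted p = 0.595). The small-conductance channels KCNN1 and KCNN3 had differences of 0.03 and 0.06. KCNT1, a sodium-activated channel, had a difference of 0.00 with an interval of -0.13 to 0.14. Its relative KCNT2 and the sperm channel KCNU1 were not tested.

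Inward rectifiers numbered 13, of which 10 were tested, and 0 passed the threshold in either direction, beside 10.9% of all tested genes. At an unadjusted p under 0.05, which 25% of all tested genes reached, there were also 0. The ordinary test called 0 of them, and only 246 higher and 170 lower among all 15798 tested genes. KCNJ10, the main inward rectifier of astrocytes, had the smallest p. It read 5.40, 5.29 and 5.36 in overexpression and 5.29, 5.23 and 5.13 in the controls. Overexpression array 2 lay just below control array 1, and the other overexpression arrays lay above all controls. Its difference was 0.13 with an interval of -0.01 to 0.27 (limma, adjusted p = 0.228).

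KCNJ15 was the 1 tested member whose overexpression arrays all lay below the controls, with 5.14, 5.05 and 5.11 against 5.28, 5.19 and 5.14. The gap between the groups was only 0.001. The mean difference was -0.10 (limma, adjusted p = 0.329). Its neighbours on chromosome 21 had a median difference of 0.16 in the opposite direction, and with the regional median removed KCNJ15 was called lower, with a difference of -0.26 at an adjusted p of 0.0302. KCNJ6, a G-protein-gated channel on the same chromosome, had a difference of -0.10 beside a regional median of 0.16. The difference was -0.27 with the regional median removed (limma, adjusted p = 0.0803) and -0.02 without overexpression array 1 (adjusted p = 0.953), and was not called in either. KCNJ6 read 4.74, 5.0 and 4.97 against 5.06, 5.02 and 4.93, the lowest tested mean among the members, and was above the array median on 3 arrays. KCNJ2, KCNJ4, KCNJ5, KCNJ8, KCNJ9, KCNJ11 and KCNJ14 had differences between -0.07 and 0.07. KCNJ1, KCNJ13 and KCNJ16 were not tested.

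Across the tested members, 3 genes (KCNQ3, KCNN4 and KCNF1) had groups that did not overlap with overexpression higher, and 1 (KCNJ15) with overexpression lower. Those 4 of 53 stand beside 29.3% of all tested genes with groups that did not overlap, 17.1% with overexpression higher and 12.2% lower.

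**Figure D3:**
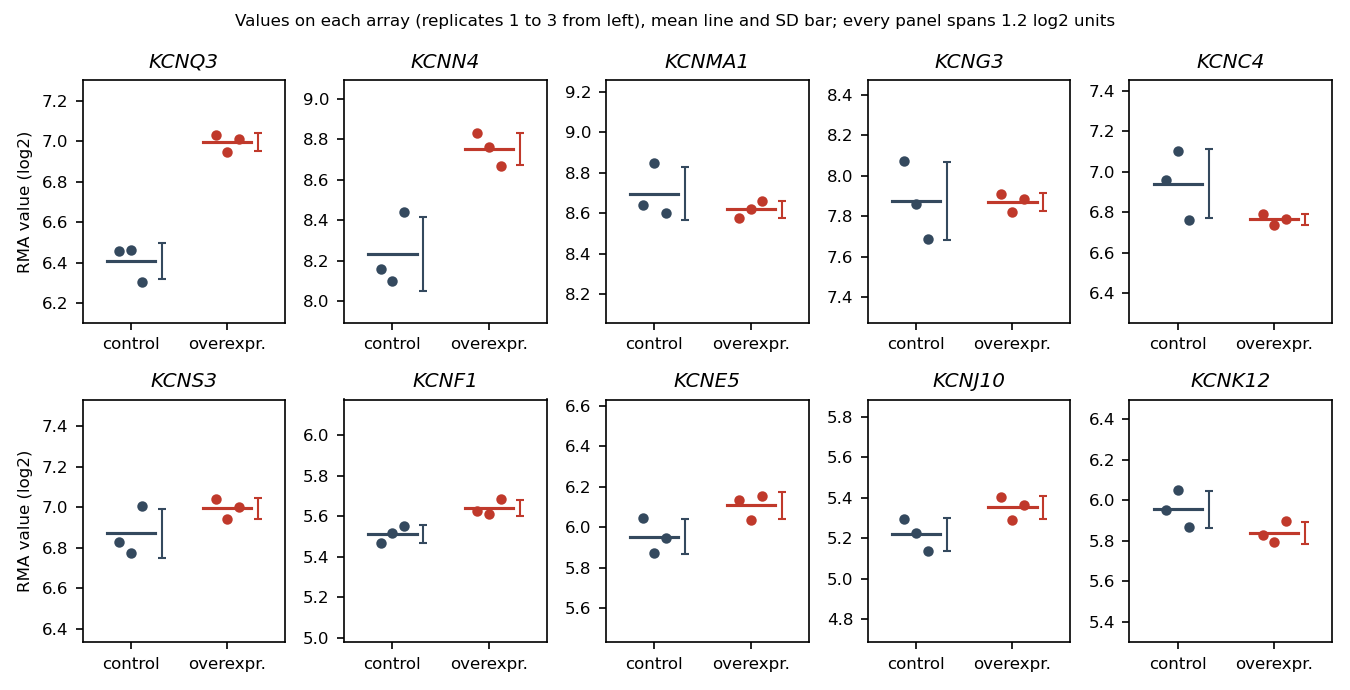
RMA values (log2, y axis) of 10 potassium channel genes on the 3 control and 3 overexpression arrays, with the mean as a line and the SD as a bar beside the points. KCNQ3 and KCNN4 separate widely and KCNF1 narrowly, while for KCNMA1, KCNG3, KCNC4, KCNS3, KCNE5, KCNJ10 and KCNK12 the groups overlap.

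The two-pore channels carry background leak currents. Of 14 such genes 9 were tested, and 0 rose and 0 fell (limma), beside 10.9% called among all tested genes. At an unadjusted p under 0.05, which 25% of all tested genes reached, there were 0. The ordinary test called 0 of them, and 246 higher and 170 lower among all 15798 tested genes. KCNK12, a subunit with little current of its own, had the smallest p. It read 5.83, 5.79 and 5.90 against 5.95, 6.05 and 5.87, with a difference of -0.12 and an interval of -0.26 to 0.03 (limma, adjusted p = 0.310). The acid-sensitive channel KCNK3 read 6.57, 6.65 and 6.60 against 6.70, 6.61 and 6.59, and its difference was -0.03. KCNK6, a channel of lysosomes and smooth muscle, read 6.87 ± 0.01 against 6.81 ± 0.06 (SD, n = 3 each). KCNK7 had a difference of 0.04. The intervals of these 3 lay within -0.16 to 0.19. KCNK5, KCNK13, KCNK15, KCNK16 and KCNK17 had differences between -0.05 and 0.05, and KCNK15 had the widest spread of the tested members among the controls (SD 0.259, n = 3). KCNK1, KCNK2, KCNK9, KCNK10 and KCNK18 were not tested.

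Accessory subunits numbered 16, of which 7 were tested, and 0 rose and 0 fell (limma), beside 10.9% called among all tested genes. The ordinary test called 0 of them, and 246 higher and 170 lower among all 15798 tested genes. At an unadjusted p under 0.05, which 25% of all tested genes reached, 1 of them was higher. That 1 was KCNE5, an X-linked single-pass subunit that reduces the current of KCNQ1. It read 6.14, 6.03 and 6.16 in overexpression and 6.04, 5.87 and 5.95 in the controls. Overexpression array 2 lay just below the highest control, and the difference was 0.15 with an interval of 0.01 to 0.30 (limma, adjusted p = 0.176). The beta subunits of the large-conductance channel were KCNMB1 and KCNMB4, with differences of 0.08 and 0.02, and the dim KCNMB2 and KCNMB3. KCNMB4 lay just inside the filter with the lowest mean among members above the median on all 6 arrays.

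The cytoplasmic beta subunits KCNAB2 and KCNAB3 differed by -0.01 and -0.06, and the calcium-binding Kv4 partners KCNIP2 and KCNIP3 by 0.02 each. KCNIP1, just outside the filter, read 4.91 ± 0.05 against 4.92 ± 0.02 (SD, n = 3 each). KCNE1, KCNE2, KCNE3, KCNE4, KCNAB1 and KCNIP4 were not tested either. KCNE2 had the largest difference among the members that were not tested. It read 4.16 ± 0.08 against 4.34 ± 0.10 (SD, n = 3 each), a difference of -0.18, and its adjusted p was 0.172 in the fit without the filter. Over all 31 untested members the differences lay between -0.18 and 0.08, and in the fit without the filter the lowest adjusted p among them was that of KCNE2. That fit called the same 2 members, KCNQ3 and KCNN4, beside 7.17% of all 22349 genes.

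**Figure D4:**
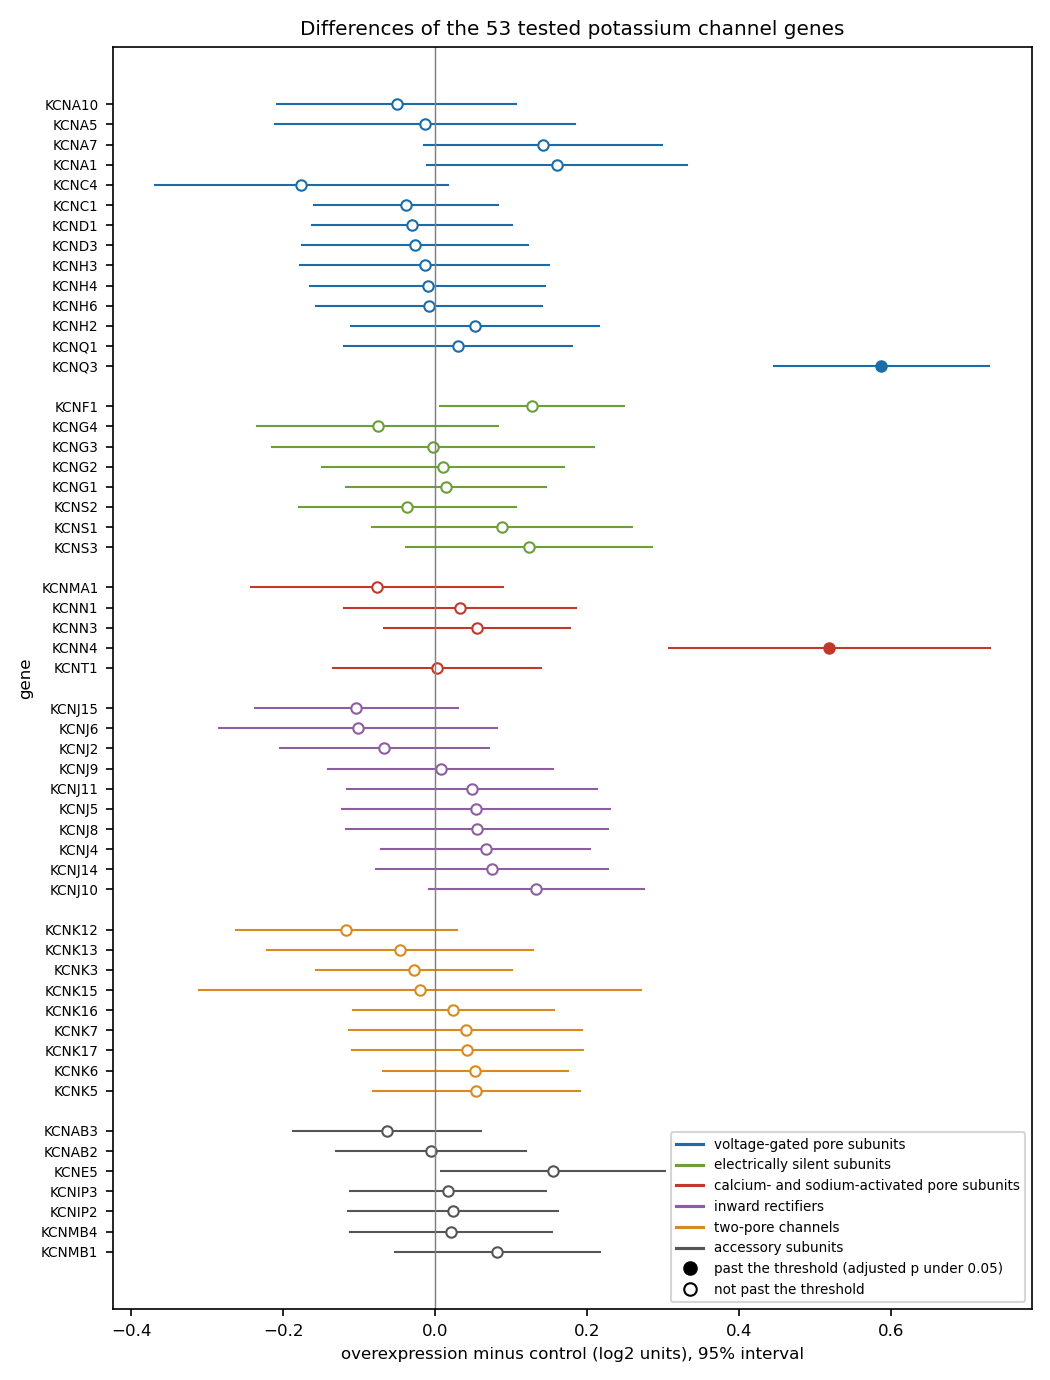
Differences between overexpression and control (log2 units, x axis) for the 53 tested potassium channel genes (y axis), grouped by role, with 95% intervals from limma. KCNQ3 and KCNN4, filled, lie at 0.59 and 0.52, and the other 51 lie between -0.18 and 0.16.

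Arrays also differed in the level of the members as a whole. Over the tested members, overexpression array 2 lay below the other arrays of its group by a median of -0.08, against -0.01 over all tested genes. Control array 1 lay above its group by 0.08, against 0.02. For control array 3 the median was -0.06, against 0.002 over all tested genes. Overexpression arrays 1 and 3 lay at 0.05 and 0.03, against 0.01 each, and control array 2 lay at -0.03 in both. The part of this shift in the small differences above was not tested.

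Another list of genes, drawn up around potassium balance outside the KCN symbols, was read from the same fit. It held pumps, cotransporters and their kinases, other channel partners and protein kinases. It also held chloride and other anion transport genes such as CLCN3, ANO1 and LRRC8A, which do not carry potassium. Of its 72 entries 62 had a probe set of their own. Of 50 tested genes 2 rose and 3 fell, with a median difference of 0.02. Those 5 calls stand beside 10.9% called among all tested genes, a share near that of the list. WNK3, a kinase that controls cation-chloride cotransport, read 5.22, 5.38 and 5.32 in overexpression and 4.53, 4.28 and 4.30 in the controls and was called higher. All 3 control arrays lay below the array median, so WNK3 passed the filter only through the overexpression arrays, and no fold is given. In the fit without that filter its adjusted p was 0.00105 (limma). PRKG1, the cGMP-dependent kinase, rose by 0.28 (adjusted p = 0.0148). PRKX, a cAMP-dependent kinase relative on the X chromosome, fell by 0.25 (adjusted p = 0.0152).

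CLCN3, a chloride-proton exchanger, fell by 0.23 (adjusted p = 0.0442), and WNK1, the kinase upstream of cotransporter activation, fell by 0.23 (adjusted p = 0.0496). Both of these calls lay close to the threshold. CLCN3 was called under 7 of 17 alternatives and WNK1 under 5 of 17, against 11 of 17 for PRKG1 and 13 of 16 for PRKX. WNK3 was called under 16 of 16, but that count is no support for its call. Apart from the fit without the filter, those fits used a filter that WNK3 passed only through the overexpression arrays. Averaging its probe sets turned the difference of WNK1 to 0.03. The sodium-potassium pump subunits ATP1B1 and ATP1B3 were not called, with differences of 0.06 and -0.13. The ATP-sensitive channel partners ABCC8 and ABCC9 had differences of -0.01 and -0.11, of which ABCC9 was not tested.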

How the data were processed

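The authors deposited log2 expression values, made with RMA in Affymetrix Expression Console per the submitters' processing notes. Software version, library files and build are not given in the sources used here. No scanner files or detection calls were used. Platform symbols were updated through RefSeq (GRCh38.p14) and Y-linked genes left out. For each gene the probe set with the highest mean was kept.

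Groups were compared with limma 3.58.1 (lmFit, eBayes, no covariate, R 4.3.3) on 15798 genes, with Benjamini-Hochberg adjustment over all of them and a threshold of 0.05. Intervals are limma's 95% intervals. The smallest change that this fit can find in these arrays was not tested.

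Named genes were the called members, the 12 with the highest mean, the smallest p of each role class, differences of at least 0.5, the 3 members on either side of the filter, and called genes of the other list. Members named beyond this, with the untested ones, were chosen after their values were seen. Members, lists and tests were chosen with earlier results of these data known. Python 3.11.15 served for annotation and plots. The number of arrays limits the precision.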

Additional observations from a re-analysis of the deposited data

How the results depend on the processing

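KCNQ3 was called higher under all 17 alternatives, with differences from 0.54 to 0.61. The cause of each change below was not tested. Fits without an array also have fewer samples, and the part of this in their changes was not tested either. The count of members called higher was 1 with the ordinary test and 1 with the regional median removed, and 1 to 3 without 1 array. The count called lower was 1 with the regional median removed and 0 to 1 without 1 array. Without control array 3 the calls were KCNQ3, KCNN4, KCNS3 and KCNC4, beside 22.9% of all tested genes. Over all genes 1009 were higher and 716 lower. These were 246 and 170 with the ordinary test, 596 and 575 with the regional median removed, and 307 to 2050 and 215 to 1575 without 1 array. With arrays centred on their medians 719 were higher and 688 lower, and with cyclic loess 866 and 834. With a replicate block 589 were higher and 439 lower, and both member calls held (KCNN4 at an adjusted p of 0.0477). Deviations of same-numbered arrays correlated at 0.28, -0.10 and -0.24, and 2 of 6 arrays correlated best with their own number. With 3 arrays in each group these values cannot decide whether same-numbered arrays were handled together. The other list, with 2 higher and 3 lower, gave 1 higher with the ordinary test, the stricter filter and the regional median removed, and 1 to 4 without 1 array. It gave 1 lower with the ordinary test, the intensity trend, no filter, centring and the replicate block, and 0 to 4 without 1 array. Signs under the alternatives were followed for the named genes only. Among these, members that were not called and lay near 0 changed sign. KCNG1 was -0.0081 with centring, -0.011 with quantile normalization, -0.018 with cyclic loess and -0.078 with the regional median removed. KCNMB4 was -0.0013, -0.00014, -0.0019 and -0.034 in the same settings. With the regional median removed KCNG3 was 0.0019, KCNH2 -0.0065 and KCNK6 -0.0039. From the other list WNK1, called lower at -0.23, was 0.033 with its probe sets averaged. Without 1 array the ranges were -0.107 to 0.013 for KCNA10, -0.023 to 0.042 for KCNG1, -0.096 to 0.098 for KCNG3, -0.051 to 0.0065 for KCNK3, -0.0098 to 0.081 for KCNK7, -0.0061 to 0.060 for KCNMB4 and -0.023 to 0.073 for KCNN1. Signal near the array median limits what can be said of the 31 untested members.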

Other observations

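The KCN probe sets outside the members are given as values. The probe set shared by KCNRG and TRIM13 read 6.88 against 6.74 in overexpression and control, a difference of 0.14. Those shared by KCNK4 and CATSPERZ, by KCNJ12 and KCNJ18, and by KCNA6 and GALNT8 had differences of 0.03, 0.04 and -0.04. Among the 17 non-coding KCN symbols the differences lay between -0.15 (KCNIP2-AS1) and 0.14 (KCND3-IT1). KCNQ1OT1, the imprinted antisense transcript of KCNQ1, read 4.44 against 4.32.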
